A study of Mus musculus with 21 samples.

Results

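The genes described here are 9 transcription factors that mark the formative state of pluripotency: Otx2, Grhl2, Vrtn, Foxd3, Pou3f1, Sall2, Zic2, Zic5 and Tcf15. They were chosen by name, and all 9 were found by gene name in every one of the 21 gene abundance tables, among 32285 genes in a time course and 25239 genes in a separate Cyp26a1 set. After 24 h without LIF and 2i all 9 stood above the starting embryonic stem cells (ESCs), by 2.58-fold (Foxd3) to 67.1-fold (Pou3f1) in mean TPM. With retinoic acid (RA) at the same time 8 of the 9 were lower than without it, and Tcf15 was higher. The size of the difference ran from the 55.7-fold lower level of Vrtn, which was near 0 with RA, over the 13.0-fold lower Grhl2 and the 11.4-fold lower Otx2, to the 1.46-fold lower Zic2. Of all genes tested, 25.4% were called higher after 24 h without LIF and 2i than in the starting ESCs. With RA against without it at 24 h, 12.5% were called lower and 22.8% higher. Among the 8 lower factors the call on Zic5 was lost when some single libraries were left out.

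Naive ESCs held by LIF and by inhibitors of MEK and GSK3 express Klf, Esrrb and Tfcp2l1 factors. When those supports are removed the cells pass through a formative state, in which Otx2 moves Pou5f1 protein to new enhancers, Grhl2 opens enhancers of epithelial genes, Foxd3 acts at enhancers during the same transition, and Zic2, Zic5, Pou3f1 and Sall2 become more abundant. Tcf15 is a basic helix-loop-helix factor that is induced by FGF signalling and primes ESCs for differentiation. RA binds nuclear receptors that sit on paired AGGTCA-like hexamers, and Cyp26a1 is an enzyme that breaks RA down.

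Polyadenylated RNA was sequenced from 21 libraries in 7 groups of 3. In the time course, RA_12h and RA_24h were wild type ESCs with 2 µM RA for 12 h and 24 h, noRA_12h and noRA_24h were wild type ESCs without LIF and 2i and without RA for 12 h and 24 h, and ESC_0h were the starting wild type ESCs. The starting ESCs grew in 15% serum with LIF, 1 µM PD0325901 and 3 µM CHIR99021, the pair of inhibitors called 2i. In the Cyp26a1 set, Cyp26a1 knockout (KO) and wild type (WT) ESCs were both given 2 µM RA for 24 h once LIF and 2i had been taken away, so no library of that set shows the factors without RA. For the RA cells of the time course the labels leave unsaid if LIF and 2i were taken away too. If they were not, each difference between RA and noRA cells would also be a difference in LIF and 2i. By the labels alone, RA and these supports cannot be told apart there. The labels name no cell line beyond ESC and name no KO clone, so several lines or 1 line cannot be told apart. There is no group with LIF and 2i at 12 h or 24 h, so their removal and time in culture cannot be told apart. Replicates are numbered but not said to be separate cultures, so each p-value reflects only how far these samples spread, and that spread may be technical.

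By an estimate from coverage and FPKM, time course libraries held 2.96 to 3.91 aligned gigabases and libraries of the Cyp26a1 set 2.72 to 3.24. The targeted gene Cyp26a1 stood at 4.52 ± 0.458 TPM in KO libraries and at 595 ± 10.8 TPM in WT libraries (SD, n = 3 each), and in the time course it stood at 313 ± 28.7 TPM in RA_24h, 0.75 ± 0.186 TPM in noRA_24h and 0 in ESC_0h. Summed pluripotent markers (Pou5f1, Sox2 and Nanog) were 2517 to 2967 TPM in RA_24h, 3100 to 3169 TPM in noRA_24h and 2995 to 3153 TPM in ESC_0h. The 5 endoderm markers summed to 94.0 to 115 TPM in RA_24h and to 2.06 to 2.38 TPM in noRA_24h, and at 12 h to 19.0 to 22.4 TPM in RA_12h and to 1.25 to 2.81 TPM in noRA_12h, with none of the 5 listed at 0 in a whole group. Their part in the results below was not tested, and in bulk RNA fewer cells of a type and less RNA per cell cannot be told apart. Libraries of a group differed along 1 main axis that carried 67.2% of the variance within groups in the time course, on which noRA_12h library 1 (40.2), noRA_12h library 2 (-35.1) and RA_24h library 2 (49.8) lay farthest out, and on the axis of the Cyp26a1 set KO library 3 (36.4) did. Leaving out noRA_12h library 1 and RA_24h library 2, a choice made after seeing the data, ended no call on any of the 9 factors.

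In mm10 coordinates, Otx2 (chr14:48657677-48673819, minus strand), Sall2 (chr14:52311172-52328762, minus strand), Zic5 (chr14:122456795-122465677, minus strand) and Zic2 (chr14:122475435-122479852, plus strand) share a chromosome, and the starts of Zic5 and Zic2, which are read away from each other, lie 9758 bases apart. Foxd3 (chr4:99656299-99658622) and Pou3f1 (chr4:124656807-124660655), both on the plus strand, share another, while Vrtn (chr12:84641019-84651455, plus strand), Grhl2 (chr15:37233036-37363569, plus strand) and Tcf15 (chr2:152143561-152149097, plus strand) stand alone. The table of promoters from RefSeq (GRCm38.p6) matched 5 of the 9 factors with 11 windows of 250 bases before a start, for Otx2, Vrtn, Foxd3, Sall2 and Zic5. Pou3f1, Grhl2, Zic2 and Tcf15 had no entry. All windows of Otx2 lie inside the gene span given above. Its most upstream RefSeq start is 48667644, while that span reaches 48673819, so no window at that end was searched. Windows of 4 factors are shown because they span the responses to RA described below, from the factors that fell most to a member of the Zic pair that fell little. The hexamer AGGTCA, searched on both strands, is in capitals (TGACCT is its reverse complement), and the windows are chr14:48667645-48667894 for Otx2, chr4:99656049-99656298 for Foxd3, chr12:84640769-84641018 for Vrtn and chr14:122465659-122465908 for Zic5, each 5′ to 3′ on the strand of its gene.
Otx2: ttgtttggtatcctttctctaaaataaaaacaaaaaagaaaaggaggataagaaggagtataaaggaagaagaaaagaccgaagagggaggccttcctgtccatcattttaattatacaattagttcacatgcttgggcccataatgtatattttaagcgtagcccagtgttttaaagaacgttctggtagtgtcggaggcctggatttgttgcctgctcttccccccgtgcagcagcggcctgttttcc
Foxd3: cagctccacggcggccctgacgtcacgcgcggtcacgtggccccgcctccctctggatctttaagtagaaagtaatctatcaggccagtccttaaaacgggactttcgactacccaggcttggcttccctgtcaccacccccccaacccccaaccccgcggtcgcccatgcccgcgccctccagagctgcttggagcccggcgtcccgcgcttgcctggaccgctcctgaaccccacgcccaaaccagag
Vrtn: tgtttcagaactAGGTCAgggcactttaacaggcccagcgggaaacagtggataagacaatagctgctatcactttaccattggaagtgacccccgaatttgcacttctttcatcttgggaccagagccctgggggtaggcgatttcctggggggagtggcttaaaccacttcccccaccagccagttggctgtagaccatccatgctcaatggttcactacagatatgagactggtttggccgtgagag
Zic5: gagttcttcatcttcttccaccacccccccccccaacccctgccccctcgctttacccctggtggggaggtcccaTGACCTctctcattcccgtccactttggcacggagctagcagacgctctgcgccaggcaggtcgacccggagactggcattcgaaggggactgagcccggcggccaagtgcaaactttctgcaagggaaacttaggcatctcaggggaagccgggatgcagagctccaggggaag
The hexamer begins 238 bases before the most upstream listed start of Vrtn and 175 bases before the start of Zic5. The windows of the other listed Vrtn starts did not hold it. These were the 2 of 11 windows that held it, the Vrtn window shown and that of Zic5, against 14.0% of all 32851 windows in the table. Direct repeats of the hexamer with 1, 2 or 5 bases between (AGGTCANAGGTCA, AGGTCANNAGGTCA and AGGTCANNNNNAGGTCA, both strands, each also counted as hexamers) were in none of the 11 windows and in 0.0335%, 0.00913% and 0.00913% of all windows. The letters TAATCC, which OTX proteins bind, were in 1 of the 11 windows, another start of Otx2, and in 6.25% of all windows. Each match is a description of letters only.

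Removal of LIF and 2i was followed by higher levels of all 9 factors at 24 h, against a background of 25.4% of the 13948 genes tested called higher and 26.5% called lower (limma on log2(TPM + 1), Benjamini-Hochberg adjusted p below 0.05). The median change of the 9 on the log2 scale was 2.89, and that of all genes tested was 0.03. Otx2, Pou3f1 and Grhl2 ranked 3, 5 and 11 of 13948 by size of increase. At 12 h 8 of the 9 were already higher and Vrtn was lower, against 22.0% of genes called higher and 20.4% called lower. The median change of the 9 was 1.82 at 12 h, and that of all genes was -0.04.

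Otx2, a homeodomain factor of the anterior epiblast, stood at 3.45, 4.23 and 3.60 TPM in the 3 ESC_0h libraries, at 94.3, 80.7 and 85.7 TPM in noRA_12h and then at 167, 174 and 162 TPM in noRA_24h. The 3 groups did not overlap, and the largest step came in the first 12 h, when 81.7% of the log2 change at 24 h had been reached. Its log2 change from ESC_0h was 4.21 ± 0.0962 (SE) at 12 h and 5.15 ± 0.0962 at 24 h (limma adjusted p = 4.42e-12 and 8.83e-13). Grhl2, a grainyhead factor that keeps epithelial genes open, followed the same course, with 1.20, 2.02 and 1.56 TPM in ESC_0h, 23.0, 21.3 and 23.1 TPM in noRA_12h and 49.9, 51.5 and 48.5 TPM in noRA_24h. Its groups did not overlap either, and its log2 change was 3.19 at 12 h and 4.31 at 24 h (limma adjusted p = 9.92e-11 and 4.43e-12).

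Pou3f1, the POU factor also called Oct6, started lower and rose later. It stood at 0.68, 1.03 and 0.60 TPM in ESC_0h, at 9.23, 13.0 and 12.1 TPM in noRA_12h and then at 55.6, 52.2 and 47.0 TPM in noRA_24h. At 12 h it had 57.4% of its log2 change at 24 h, and the 24 h change was 4.90 ± 0.133 (limma adjusted p = 9.26e-12). The zinc finger factors Zic2 and Zic5 also had less of their log2 change at 12 h than Otx2 (81.7%) and Grhl2 (74.0%). From 12 h to 24 h, though, Zic2 rose by 1.07 on the log2 scale, much as Grhl2 did (1.12). Its course was thus later than that of Grhl2 by this share only. Zic2 stood at 10.1, 9.12 and 10.1 TPM in ESC_0h, at 32.6, 43.5 and 35.3 TPM in noRA_12h and then at 81.3, 80.6 and 73.4 TPM in noRA_24h. Its change at 24 h was 2.89 ± 0.0938 on the log2 scale, of which 63.0% was present at 12 h (limma adjusted p at 24 h = 4.52e-11). Zic5 stood at 1.37, 1.53 and 2.62 TPM in ESC_0h, at 9.71, 4.21 and 6.91 TPM in noRA_12h and then at 21.5, 20.4 and 21.0 TPM in noRA_24h. Its noRA_12h libraries were the most spread of its 5 groups relative to their mean but did not reach either neighbour in time, and its change at 24 h was 2.98 ± 0.252, with 48.7% present at 12 h (limma adjusted p at 24 h = 4.56e-07).

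Vrtn, a factor first known for its effect on vertebral number in pigs, was the latest. It stood at 1.36, 1.64 and 1.16 TPM in ESC_0h, at 0.30, 0.99 and 0.62 TPM in noRA_12h and then at 11.7, 11.1 and 12.5 TPM in noRA_24h. Every noRA_12h library lay below every ESC_0h library, with a log2 change of -0.56 ± 0.149 (limma adjusted p = 0.00791), and every noRA_24h library lay far above both, with 2.42 ± 0.149 over ESC_0h (adjusted p = 2.03e-08). Between noRA_24h and noRA_12h its log2 change of 2.98 ranked 4 of 13948 genes. The fall at 12 h rests on levels near 1 TPM, where the highest base coverage was 0.776 in ESC_0h, and it missed the threshold with quantile normalization (adjusted p = 0.0594) and with a model of only the 2 groups compared (0.0547). It passed at -1.12 with a pseudocount of 0.1 and at -0.34 with FPKM.

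Foxd3 and Tcf15 were the pair that peaked at 12 h. Foxd3, a forkhead factor, stood at 14.9, 12.5 and 14.3 TPM in ESC_0h, at 42.8, 54.1 and 47.3 TPM in noRA_12h and then at 40.0, 34.9 and 32.7 TPM in noRA_24h. The groups did not overlap, and from 12 h to 24 h Foxd3 fell by 0.41 on the log2 scale (limma adjusted p = 0.00745), and by 0.22 with the correction for GC content and length. Tcf15 stood at 23.7, 20.8 and 23.9 TPM in ESC_0h, at 76.8, 115 and 87.7 TPM in noRA_12h and then at 77.1, 73.9 and 71.5 TPM in noRA_24h. Its noRA_24h and noRA_12h libraries overlapped and the log2 difference of -0.31 missed the threshold (adjusted p = 0.0858), which it passed without noRA_12h library 1 (adjusted p = 0.0178), without RA_24h library 2 (0.0458) and without both (0.00301). Sall2, a spalt zinc finger factor, stood at 3.31, 3.78 and 3.26 TPM in ESC_0h, at 9.71, 8.77 and 9.49 TPM in noRA_12h and then at 12.2, 12.0 and 11.3 TPM in noRA_24h. Its groups did not overlap, yet the step after 12 h was small, with a log2 change of 0.31 (adjusted p = 0.0316) that missed the threshold without noRA_12h library 2 or 3 or any 1 library of noRA_24h (adjusted p = 0.0535 to 0.108). It also missed it with quantile normalization (0.20, adjusted p = 0.370) and under median-of-ratios scaling (0.29, 0.0749). Counting Sall2, 7 factors rose between 12 h and 24 h and Foxd3 fell, against 17.1% of genes called higher and 22.6% called lower.

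**Figure D1:**
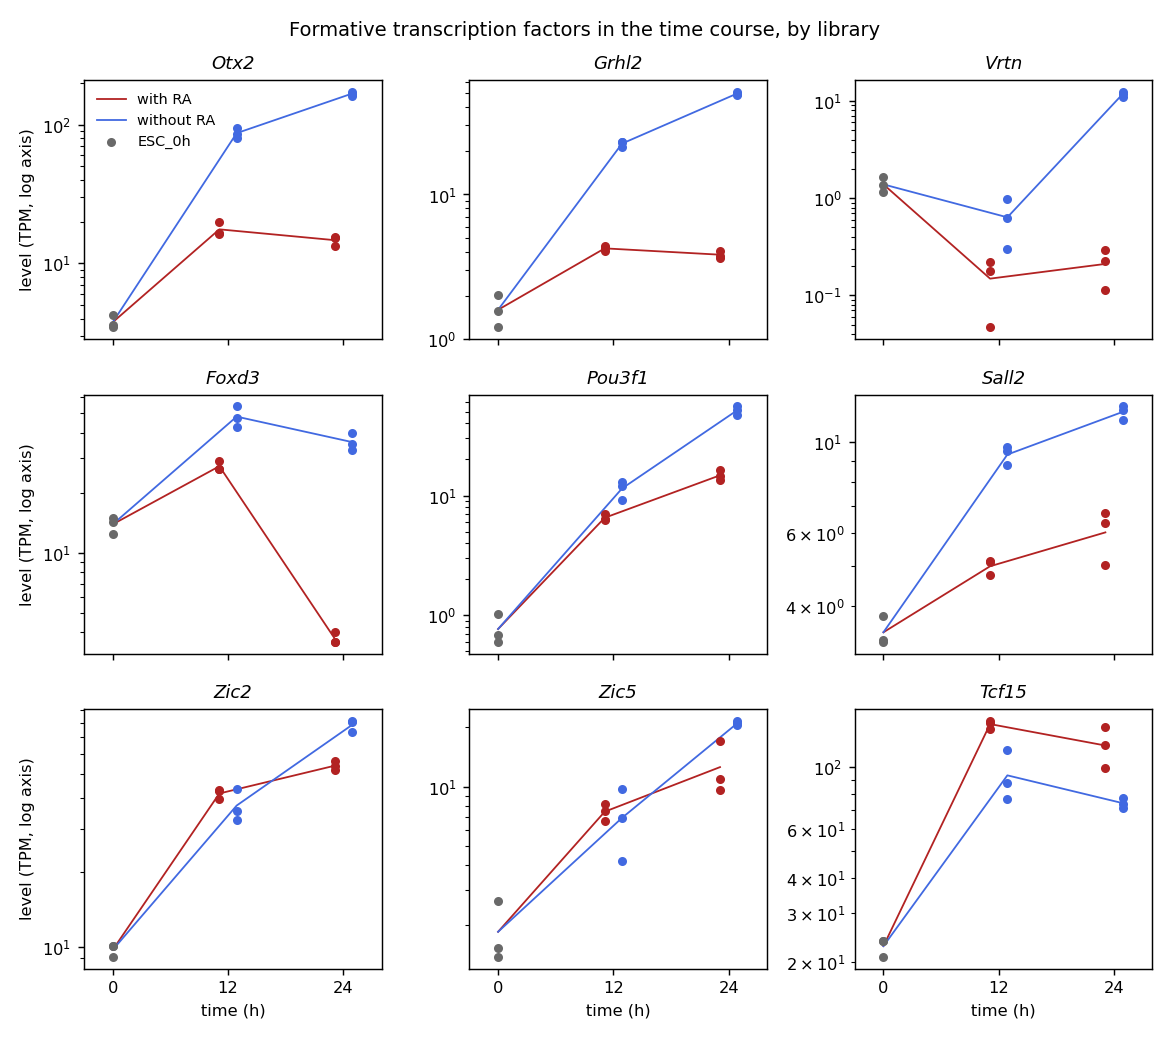
TPM (log axis) of the 9 factors against time in hours, 1 point per library (red with RA, blue without RA, grey ESC_0h) and lines through group means, with the points at 12 h and 24 h set slightly apart sideways. The red points lie far below the blue ones for Otx2 and Grhl2 at both times (at 24 h 14.7 against 168 TPM and 3.83 against 50.0 TPM on average), while for Tcf15 they lie above.

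With RA for 12 h, 6 of the 9 factors were lower than without it and Tcf15 was higher, against 7.19% of genes called lower and 10.2% called higher. With RA for 24 h, 8 were lower and Tcf15 was higher, against 12.5% called lower and 22.8% called higher. The median change of the 9 was -0.72 at 12 h and -1.74 at 24 h, and that of all genes was -0.01 and 0.02. Corrected for GC content and length, all calls split into 1611 higher and 2049 lower at 12 h (1428 and 1003 without it) and into 2524 higher and 2982 lower at 24 h (3178 and 1737 without it).

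Otx2 stood at 16.6, 19.9 and 16.3 TPM in RA_12h and at 15.2, 15.5 and 13.4 TPM in RA_24h. At both times every library with RA lay well below every library without it, and the log2 difference to noRA was -2.24 at 12 h, the lowest of all 13948 genes, and -3.43 at 24 h, the third lowest (limma adjusted p = 5.49e-09 and 3.00e-11). Grhl2 stood at 4.41, 4.08 and 4.23 TPM in RA_12h and at 4.09, 3.64 and 3.77 TPM in RA_24h, also clear of the libraries without RA. Its log2 difference to noRA was -2.16 at 12 h, rank 3 from the bottom, and -3.40 at 24 h, rank 4 from the bottom (limma adjusted p = 1.94e-08 and 8.23e-11). The log2 difference between RA_24h and RA_12h was -0.24 for Otx2 (adjusted p = 0.0683) and -0.12 for Grhl2 (0.406). The 2 groups did not overlap for Otx2, and its fall passed with FPKM (adjusted p = 0.0305), median-of-ratios scaling (0.0302), quantile normalization (-0.36, 0.0186) and the GC and length correction (-0.38, 0.00396), and without noRA_12h library 1 and RA_24h library 2 (0.0480). For Grhl2 the groups overlapped, and its fall passed with quantile normalization (-0.40, 0.0482). Both still stood above ESC_0h after 24 h of RA, Otx2 by 3.91-fold and Grhl2 by 2.40-fold in mean TPM (limma adjusted p = 6.58e-09 and 1.01e-05).

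Foxd3 did not stay above its starting level. It stood at 26.4, 28.7 and 26.4 TPM in RA_12h, between ESC_0h and noRA_12h, and at 3.58, 3.60 and 4.02 TPM in RA_24h, below all 3 ESC_0h libraries. The log2 difference was -0.80 for RA_12h against noRA_12h (limma adjusted p = 1.13e-04), -2.96 for RA_24h against noRA_24h (2.18e-10), and -1.65 for RA_24h against ESC_0h (2.11e-08). Between RA_24h and RA_12h Foxd3 fell by 2.57 on the log2 scale, the third lowest of all genes (adjusted p = 3.66e-09), in a comparison where Pou3f1 (1.06) and Zic2 (0.36) rose and the other 6 factors did not pass, against 17.8% of genes called higher and 16.8% called lower. Among those 6, Zic5 (0.64, adjusted p = 0.0640) passed with FPKM (0.0497) and, with the GC and length correction, Zic5 (0.0494) and Sall2 (0.26, 0.0413) passed as higher and Tcf15 (-0.28, 0.0131) as lower. Leaving out single libraries put Zic5, Sall2 or Tcf15 past the threshold too (adjusted p = 0.0245 to 0.0472). Quantile normalization gave 1637 genes higher and 2670 lower there, against 2487 and 2339 without it.

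Vrtn was near 0 with RA. It stood at 0.05, 0.18 and 0.22 TPM in RA_12h and at 0.29, 0.11 and 0.23 TPM in RA_24h, with a base coverage of at most 0.182 in RA_24h. The log2 difference was -3.40 for RA_24h against noRA_24h (limma adjusted p = 1.83e-09), where all libraries of the groups were far apart. At 12 h, when Vrtn was low without RA too, it was -0.49 (adjusted p = 0.0375), and that call was lost without noRA_12h library 2 or 3, without any 1 library of RA_12h and without noRA_24h library 1 (adjusted p = 0.0519 to 0.139). It was also lost with no filter (0.0578), with quantile normalization (0.0705), with FPKM (log2 difference -0.26, adjusted p = 0.0822) and with a model of only the 2 groups compared (0.143). With a pseudocount of 0.1 the 12 h difference was -1.52 and passed, and the 24 h difference was -5.30. With RA it stood below ESC_0h at both times, by -1.05 at 12 h and -0.98 at 24 h (adjusted p = 6.08e-05 and 1.02e-04), which passed at -2.64 and -2.29 with a pseudocount of 0.1 and at -0.61 and -0.57 with FPKM.

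Pou3f1 and Sall2 were lower with RA than without it but higher than in ESC_0h. Pou3f1 stood at 6.25, 6.98 and 6.34 TPM in RA_12h and at 14.6, 13.4 and 16.2 TPM in RA_24h, each group below the noRA libraries of its time. Its log2 difference to noRA was -0.72 at 12 h and -1.74 at 24 h (limma adjusted p = 0.00186 and 4.13e-07), and the 12 h call was lost with quantile normalization (0.0509). In RA_24h Pou3f1 was still 19.2-fold above ESC_0h in mean TPM. Sall2 stood at 5.13, 4.74 and 5.10 TPM in RA_12h and at 6.36, 5.01 and 6.72 TPM in RA_24h, clear of the noRA libraries. Its log2 difference to noRA was much the same at both times, -0.78 at 12 h and -0.88 at 24 h (limma adjusted p = 1.51e-04 and 2.75e-05).

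The Zic genes and Tcf15 differed from these. Zic2 stood at 42.5, 39.4 and 42.8 TPM in RA_12h, overlapping noRA_12h, and at 56.3, 51.5 and 53.6 TPM in RA_24h, below noRA_24h. Its log2 difference to noRA was 0.17 at 12 h (limma adjusted p = 0.262) and -0.54 at 24 h (6.28e-04), and without noRA_12h library 2 the 12 h value was 0.28 with an adjusted p of 0.0246. With the correction for GC content and length the 24 h value was -0.84. Zic5 stood at 7.49, 6.70 and 8.20 TPM in RA_12h, inside the range of noRA_12h, and at 10.9, 17.1 and 9.64 TPM in RA_24h, below noRA_24h in every library. Its log2 difference to noRA was 0.15 at 12 h (adjusted p = 0.723) and -0.73 at 24 h (0.0376), and the 24 h call was lost without noRA_24h library 1, 2 or 3, RA_24h library 1 or 3, or RA_12h library 1 (adjusted p = 0.0504 to 0.148). It was also lost with no filter (0.0586) and with a pseudocount of 0.1 (0.0601). The highest of its RA_24h libraries was library 2, which lay farthest out on the axis within groups, and without it and noRA_12h library 1 the difference was -0.96 (adjusted p = 0.00101). Tcf15 stood at 144, 146 and 137 TPM in RA_12h and at 120, 99.5 and 138 TPM in RA_24h. Every library with RA lay above every library without it at the same time, and the log2 difference was 0.63 at 12 h and 0.67 at 24 h (limma adjusted p = 0.00539 and 0.00181). With the correction for GC content and length these differences were smaller, 0.37 at 12 h and 0.29 at 24 h, and still passed. In RA_24h its lowest library was again library 2.

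**Figure D2:**
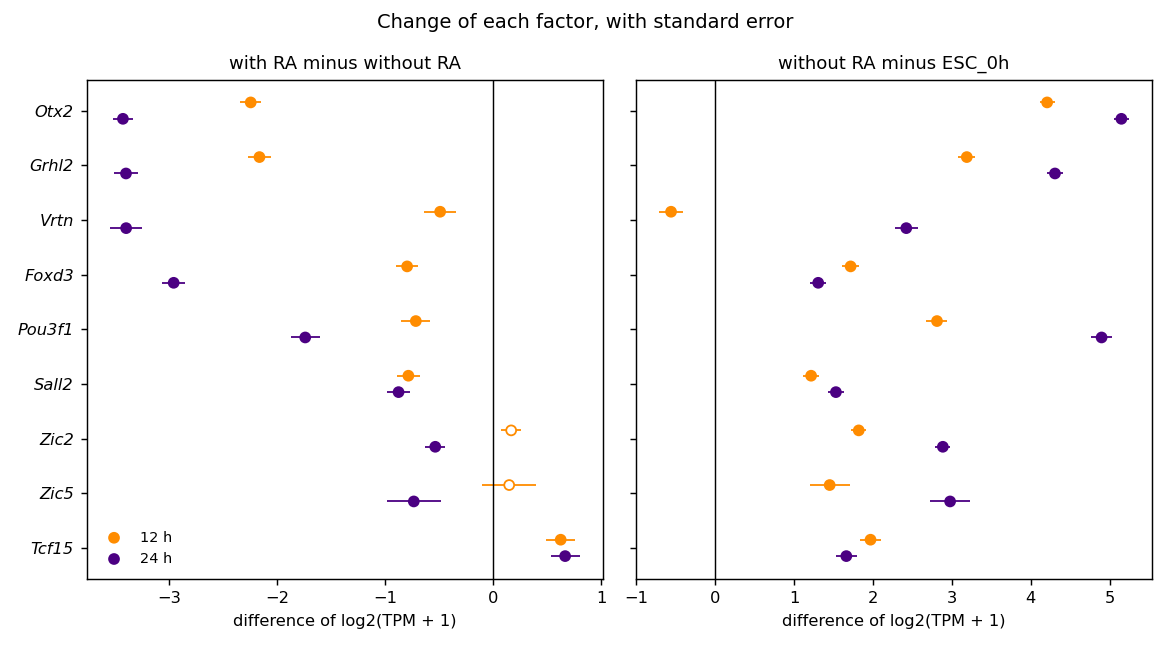
Log2 difference of TPM + 1 with its standard error for each factor, with RA minus without RA on the left and without RA minus ESC_0h on the right, at 12 h (orange) and 24 h (purple), filled where the adjusted p was below 0.05. On the left Zic2 and Zic5 at 12 h (0.17 and 0.15) are the open points, and Tcf15 (0.63 and 0.67) is the gene whose filled points lie above 0.

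The joint call, higher without RA than in ESC_0h and lower with RA than without it at the same time, was met by 5 factors at 12 h (Otx2, Grhl2, Foxd3, Pou3f1 and Sall2) and by 8 at 24 h, all but Tcf15. Of all genes tested, 3.47% met it at 12 h and 7.08% at 24 h. Both parts of the call use the same noRA libraries, so no test was made of how often they coincide. Zic5 met it at 24 h through a call that single libraries can end, as given above.

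How much of the rise was present with RA separated the factors further, as a description with the lowest and highest RA library in brackets. On the TPM scale at 24 h it was 4.63% (4.22 to 5.16) for Grhl2, 6.68% (5.86 to 7.19) for Otx2, 27.5% (24.9 to 30.4) for Pou3f1 and 30.8% (18.6 to 39.0) for Sall2. It was 56.1% (40.8 to 79.9) for Zic5, 64.1% (60.7 to 67.7) for Zic2 and 188% (149 to 225) for Tcf15. For Vrtn (-11.3%) and Foxd3 (-46.3%) it was negative, since both lay below ESC_0h. At 12 h the same share was 12.7% for Grhl2, 16.6% for Otx2, 26.2% for Sall2, 38.8% for Foxd3, 53.8% for Pou3f1, 110% for Zic5, 116% for Zic2 and 170% for Tcf15. Vrtn, which had not risen by then, has no such share at 12 h. The shares depend on the scale. On the log2(TPM + 1) scale they were 21.1% for Grhl2, 33.5% for Otx2, 42.7% for Sall2 and 64.5% for Pou3f1 at 24 h. For the rest they were 75.3% for Zic5, 81.4% for Zic2, 140% for Tcf15, -40.3% for Vrtn and -127% for Foxd3. Sall2 and Pou3f1 thus change places between the scales. At 12 h the log2 share was 32.2% for Grhl2 and 46.7% for Otx2.

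**Figure D3:**
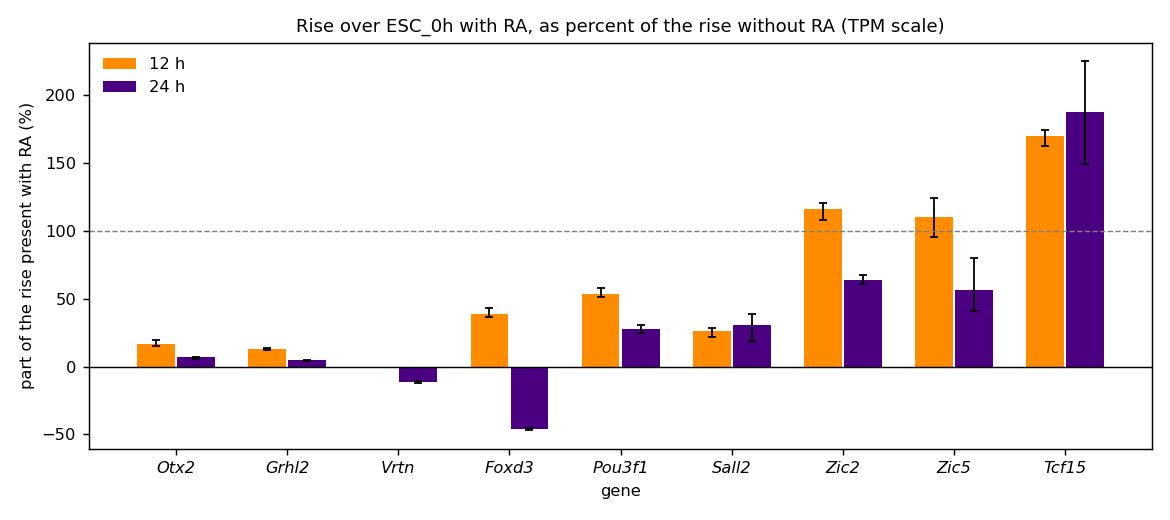
Rise over ESC_0h with RA as a percent of the rise without RA, from mean TPM, for each factor at 12 h (orange) and 24 h (purple), with whiskers from the lowest to the highest RA library and a dashed line at 100%. Grhl2 (4.63%) and Otx2 (6.68%) have the lowest positive bars at 24 h, Foxd3 (-46.3%) and Vrtn (-11.3%) lie below 0, and Tcf15 (188%) lies above the line.

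The difference between RA and noRA itself changed between the times for 6 factors, each lower at 24 h than at 12 h, against 2.68% of genes called lower and 4.17% called higher in this interaction. With a correction for GC content and length all genes split into 698 higher and 858 lower, and with quantile normalization into 279 and 320, against 581 and 374 without either. The change on the log2 scale was -2.91 for Vrtn, -2.16 for Foxd3, -1.24 for Grhl2, -1.18 for Otx2, -1.02 for Pou3f1 and -0.70 for Zic2 (limma adjusted p = 1.71e-06 to 0.00575). For Otx2, Grhl2, Vrtn, Pou3f1 and Zic2 the levels without RA rose between the times, and with RA the rise of Pou3f1 and Zic2 passed the threshold too, with a smaller log2 change. Foxd3 fell with and without RA, by more with it. For Zic5 the change was -0.88 (adjusted p = 0.176), and it passed without RA_24h library 2 (-1.11, adjusted p = 0.0487) and without that library and noRA_12h library 1 (-1.36, 0.00493). Sall2 (-0.09, adjusted p = 0.824) and Tcf15 (0.04, 0.942) did not pass, with standard errors of 0.149 and 0.191.

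Set against ESC_0h, 8 factors were higher after 12 h of RA and Vrtn was lower, against 27.4% of genes called higher and 28.3% called lower. After 24 h of RA 7 were higher and Foxd3 and Vrtn were lower, against 28.5% and 22.1%. A correction for GC content and length gave 3714 genes higher and 4335 lower at 24 h, against 3978 and 3081 without it. The log2 change from ESC_0h at 24 h was largest for Pou3f1 (3.16), followed by Zic2 (2.35), Tcf15 (2.33), Zic5 (2.24), Otx2 (1.72), Grhl2 (0.91) and Sall2 (0.65).

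The order of the 5 groups by mean level was the same for Otx2 and Grhl2, with ESC_0h lowest, then RA_24h, RA_12h, noRA_12h and noRA_24h. The neighbours RA_24h and RA_12h overlapped for Grhl2 and did not for Otx2, and no other neighbours of either gene overlapped. Pou3f1 ran from ESC_0h over RA_12h, noRA_12h and RA_24h to noRA_24h with no overlap between neighbours. Zic2 and Zic5 shared 1 order, from ESC_0h over noRA_12h, RA_12h and RA_24h to noRA_24h, with noRA_12h and RA_12h overlapping. Foxd3 ran from RA_24h over ESC_0h, RA_12h and noRA_24h to noRA_12h with no overlap, and Tcf15 from ESC_0h over noRA_24h, noRA_12h and RA_24h to RA_12h, with every pair of neighbours above ESC_0h overlapping. Sall2 ran from ESC_0h over RA_12h, RA_24h and noRA_12h to noRA_24h, and Vrtn from RA_12h over RA_24h, noRA_12h and ESC_0h to noRA_24h, and in both RA_24h and RA_12h overlapped.

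Pearson r of log2(TPM + 1) over the 15 time course libraries, which share their groups, was 0.986 for Otx2 and Grhl2, 0.971 for Otx2 and Sall2, 0.949 for Pou3f1 and Zic2 and 0.926 for Zic2 and Zic5. The lowest was -0.29 for Vrtn and Tcf15, and Foxd3 reached at most 0.643, with Grhl2. Among 1142 genes whose group means spanned at least 2 on the log2 scale, the gene most like Otx2 was Tle4 (0.993), a Groucho corepressor, and the one most like Grhl2 was Slc35d3 (0.994). Cdh3, which encodes P-cadherin, was most like Foxd3 (0.958), Egr1, an immediate early gene downstream of ERK, most like Zic2 (0.989), and Cacng7 (0.991) and Dusp5 (0.991), a phosphatase of ERK, most like Tcf15. For the rest these were Lef1os1 for Vrtn (0.973), Crmp1 for Pou3f1 (0.977), Foxi3 for Sall2 (0.981) and Syce1 for Zic5 (0.980). The groups and their order set such values, so they describe shape over these libraries.

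Other genes of the formative and primed states showed the same directions in part. Of 18 such genes, 14 rose, 1 fell and 3 did not pass in noRA_24h against ESC_0h, and 3 were higher, 12 lower and 3 did not pass in RA_24h against noRA_24h, with a median log2 change of -0.75. Fgf5, a growth factor of the epiblast, stood at 0.212 ± 0.0802 TPM in RA_24h, 13.7 ± 1.27 TPM in noRA_24h and was listed at 0 in every ESC_0h library. Mycn, a MYC family factor, stood at 8.69 ± 1.02 TPM in RA_24h, 89.3 ± 3.19 TPM in noRA_24h and 49.9 ± 0.673 TPM in ESC_0h (SD, n = 3 each), so it was lower with RA than at the start. Lef1, a factor that acts with beta-catenin, stood at 7.64 ± 1.41 TPM in RA_24h, 77.8 ± 3.90 TPM in noRA_24h and 18.2 ± 1.85 TPM in ESC_0h. Fgf15 stood at 10.4 ± 1.14 TPM in RA_24h, 66.6 ± 2.45 TPM in noRA_24h and 2.28 ± 0.0938 TPM in ESC_0h.

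The 14 naive pluripotency genes moved the other way without RA. Of these 1 rose, 12 fell and 1 did not pass in noRA_24h against ESC_0h, and with RA against noRA at 24 h 5 were higher, 8 lower and 1 did not pass. Tbx3, a T-box factor, stood at 102 ± 7.33 TPM in RA_24h, 20.3 ± 0.826 TPM in noRA_24h and 95.5 ± 3.99 TPM in ESC_0h. Tdh, an enzyme of threonine breakdown that ESCs rely on, stood at 46.8 ± 6.55 TPM in RA_24h, 236 ± 4.06 TPM in noRA_24h and 860 ± 33.5 TPM in ESC_0h. Nr0b1, a nuclear receptor also called Dax1, was the 1 that rose without RA, with 58.9 ± 6.59 TPM in RA_24h, 176 ± 5.13 TPM in noRA_24h and 34.4 ± 2.15 TPM in ESC_0h. Klf5 stood at 163 ± 7.68 TPM in RA_24h, 82.5 ± 2.14 TPM in noRA_24h and 111 ± 4.36 TPM in ESC_0h.

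Of 17 paralogs of the factors, 6 passed the filter on low values, and 1 was higher, 2 lower and 3 did not pass in RA_24h against noRA_24h. Sall1, a relative of Sall2, stood at 20.9 ± 1.16 TPM in RA_24h and 48.8 ± 3.99 TPM in noRA_24h. Of the relatives of Grhl2, Grhl3 stood at 22.8 ± 3.73 TPM in RA_24h, 18.3 ± 0.768 TPM in noRA_24h and 37.1 ± 0.879 TPM in ESC_0h. Grhl1 stood at 2.95 ± 0.439 TPM in RA_24h, 4.14 ± 0.366 TPM in noRA_24h and 2.25 ± 0.424 TPM in ESC_0h (SD, n = 3 each). Grhl3 fell in noRA_24h against ESC_0h (log2 change -0.98, limma adjusted p = 1.92e-06) and was higher in RA_24h than in noRA_24h (0.29, adjusted p = 0.0317). Grhl1 rose in noRA_24h against ESC_0h (0.67, adjusted p = 0.00199), and its difference of -0.39 between RA_24h and noRA_24h missed the threshold (adjusted p = 0.0599).

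The Cyp26a1 set asks whether the factors differ under RA when the enzyme that breaks it down is lost. Its tables list other gene models than those of the time course, so levels were not compared between the sets. Of the 8 factors tested 2 were higher in KO than in WT (Foxd3 and Grhl2) and 2 were lower (Pou3f1 and Sall2), against 3.34% of 12848 genes called higher and 6.65% called lower. The median change of the 8 was 0.11 and that of all genes -0.05. All genes split into 429 higher and 855 lower, against 933 and 868 with a correction for GC content and length, 524 and 558 with median-of-ratios scaling and 395 and 477 with quantile normalization. Vrtn did not pass the filter on low values, with 0.17, 0.30 and 0.07 TPM in KO and 0, 0.18 and 0.17 TPM in WT.

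Foxd3 stood at 5.79, 7.48 and 4.27 TPM in KO libraries, against 0.99, 1.93 and 1.89 TPM in WT libraries. Every KO library lay above every WT library, with a log2 change of 1.39 ± 0.231 that ranked 18 of 12848 (limma adjusted p = 0.0167). Pou3f1 stood at 9.55, 10.4 and 8.14 TPM in KO libraries, against 18.8, 15.5 and 17.6 TPM in WT libraries. Here every KO library lay below, with a log2 change of -0.83 ± 0.119 (limma adjusted p = 0.0105). Grhl2 stood at 3.10, 3.55 and 3.16 TPM in KO libraries, against 2.27, 1.78 and 1.84 TPM in WT libraries, and Sall2 at 5.02, 5.82 and 5.68 TPM in KO libraries, against 8.69, 8.50 and 7.19 TPM in WT libraries. Neither pair of groups overlapped, and the log2 changes were 0.53 ± 0.119 and -0.49 ± 0.113 (limma adjusted p = 0.0403 and 0.0443).

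These calls depend on few libraries. With the replicate number as a block Grhl2 and Sall2 missed the threshold (adjusted p = 0.0742 and 0.0706), while Foxd3 (0.00772) and Pou3f1 (0.0119) passed it. Both Grhl2 and Sall2 also missed it with no filter (0.0648 and 0.0724) and with FPKM (0.0510 and 0.0589), and Sall2 missed it with median-of-ratios scaling (0.0782) and quantile normalization (0.157). Grhl2 and Sall2 were each lost when any 1 of WT libraries 1 to 3 and KO libraries 1 and 2 was left out (adjusted p = 0.0850 to 0.155 and 0.0864 to 0.177). Foxd3 was lost under the same 5 omissions, more narrowly (0.0545 to 0.0649), and Pou3f1 without WT library 1 (0.0640) or 3 (0.0596). Under those 5 omissions the log2 change of Foxd3 stayed at 1.21 to 1.49. KO library 3, the outermost on the axis of this set, was not among these omissions, and without it Tcf15 passed as higher (0.23, adjusted p = 0.0182).

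Otx2 was not called, with 2.01, 2.77 and 1.60 TPM in KO libraries, against 1.42, 1.65 and 0.88 TPM in WT libraries, which overlap (log2 change 0.43 ± 0.195, limma adjusted p = 0.230). Tcf15 stood at 159, 151 and 131 TPM in KO libraries, against 132, 126 and 136 TPM in WT libraries (log2 change 0.15, adjusted p = 0.303), and it passed as higher with the GC and length correction (0.25, adjusted p = 0.0206). Zic2 stood at 22.3, 20.6 and 17.2 TPM in KO libraries, against 20.5, 17.5 and 18.7 TPM in WT libraries (0.07, adjusted p = 0.795), and Zic5 at 6.42, 5.76 and 6.77 TPM in KO libraries, against 6.53, 6.58 and 7.0 TPM in WT libraries (-0.08, adjusted p = 0.732). All 3 overlapped between the genotypes.

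**Figure D4:**
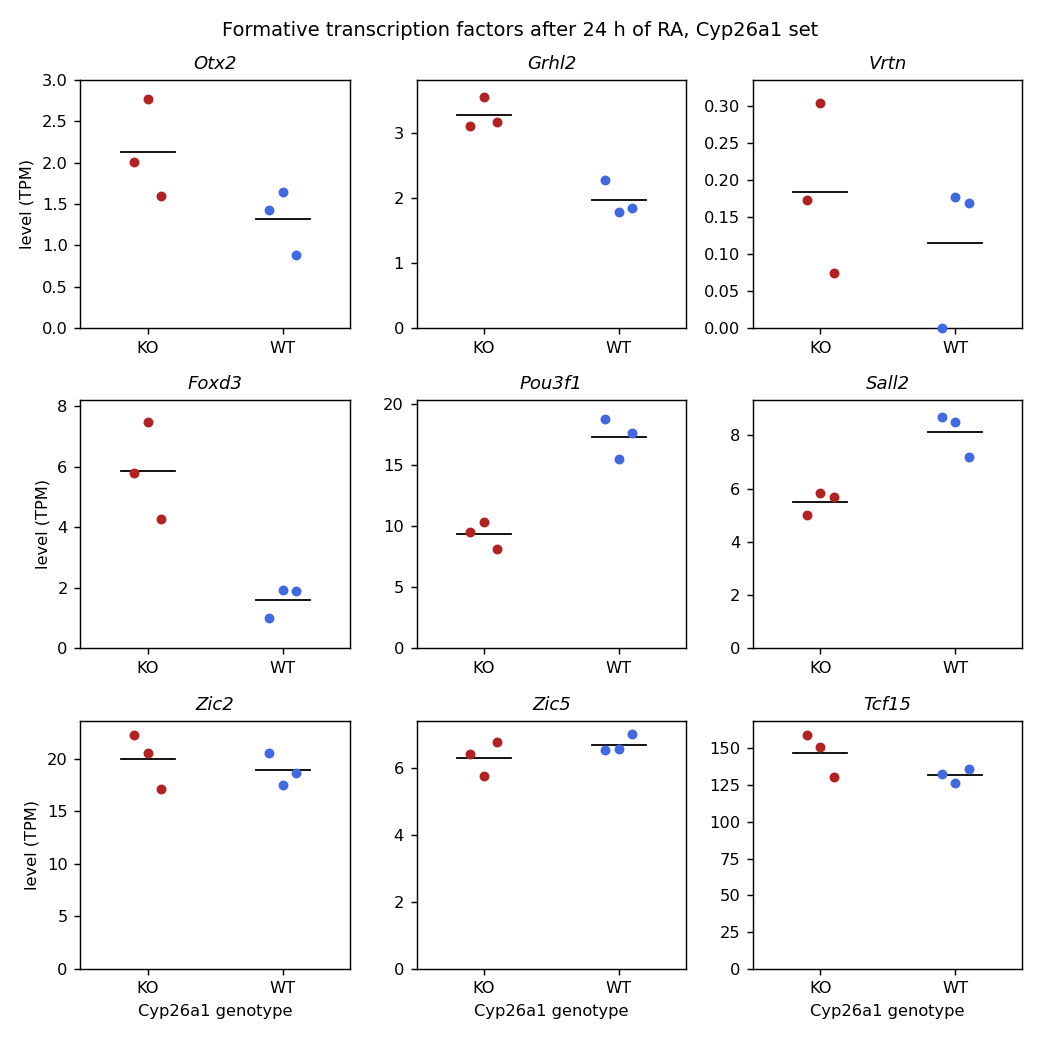
TPM of the 9 factors in the Cyp26a1 set after 24 h of RA, 1 point per library and a line at the mean, with KO left of WT and axes from 0. The groups are apart for Foxd3 (mean 5.85 in KO, 1.60 in WT), Pou3f1 (9.36 in KO, 17.3 in WT), Grhl2 (3.27 in KO, 1.97 in WT) and Sall2 (5.51 in KO, 8.13 in WT), and overlap for the other factors.

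Markers and RA targets moved in the same comparison. The 5 endoderm markers summed to 91.4 to 95.7 TPM in KO and 215 to 231 TPM in WT, and Stra8, a gene that RA induces directly, averaged 780 ± 12.5 TPM in KO and 1258 ± 33.9 TPM in WT (SD, n = 3 each). Of the 14 naive genes 7 were higher in KO, none lower and 7 did not pass, among them Nr0b1 at 57.7 ± 6.62 TPM in KO and 22.5 ± 1.38 TPM in WT. The part of these shifts in the values of the factors was not tested. Of 17 other formative and primed genes tested, 2 were higher in KO, 2 lower and 13 did not pass, and of 6 paralogs 1 was higher (Grhl3), 1 lower (Sall1) and 4 did not pass.

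Otx2, Grhl2 and Pou3f1 are overlapped by another gene, and the sources used here do not say whether strand was used in counting. Otx2os1, on the opposite strand of Otx2, stood at no more than 1.31 TPM in any time course library. Gm16136, over Grhl2, reached 7.57 TPM in the time course and 0.303 TPM in the Cyp26a1 set, and Gm2164, over Pou3f1, reached 0.184 TPM.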

How the data were processed

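Per the submitters' processing notes, HISAT2 aligned the reads to mm10 and StringTie estimated levels (versions and settings: not given in the sources used here). Coverage (signal), the mean depth over the bases of a gene, was used as deposited. FPKM had been scaled by the authors for length and library size, per the file headers. TPM had been scaled by the authors to 1 sum for each library, per the file headers. Read counts were not used. Factors were matched by gene name in each table. The factors, gene lists and tests were chosen with earlier results of these data known.

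Genes that reached 1 TPM in 3 or more libraries of a set entered the test, which was limma 3.58.1 (R 4.3.3; lmFit, contrasts.fit and eBayes with trend) on log2(TPM + 1). The 15 time course libraries had 1 model and the 6 libraries of the Cyp26a1 set another, with Benjamini-Hochberg adjustment over all genes tested. A pseudocount of 1 shrinks the changes of low genes. Depth was estimated as the commonest ratio between coverage and FPKM, among genes above 1 in both. In time course libraries only 10.08% to 10.82% of those genes had that ratio, and in the Cyp26a1 set 56.03% to 56.85%. Of each list up to 4 genes are named, those with the largest change in RA_24h against noRA_24h; a paralog that this rule would name is counted but not reported here. On simulated data 75% of genes changed by 1 on the log2 scale and 96% of those changed by 2 were recovered in RA_24h against noRA_24h. Only 100 genes of each size were changed there, and the noise was drawn for each gene on its own. Far more genes were called in the real comparison, and its libraries differed along a shared axis, so these rates need not hold for it.

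In the Cyp26a1 set the same-numbered deviations from group means correlated in all 3 pairs (r = 0.189 to 0.536). The 6 differently numbered pairs gave r = -0.461 to 0.268, with 2 over 0.1, so the 2 kinds of pairs overlapped. The labels do not say that a number marks a shared batch, and this check cannot show whether the numbers pair the samples. Blocked values stand beside the calls they change. Alternatives were a smaller pseudocount (0.1), no filter, a mean of 5 TPM or more, FPKM, median-of-ratios scaling, quantile normalization, no trend, the replicate block, a correction for GC content and length (GENCODE M21), only the groups compared, and each library left out in turn. Python 3.11.15 with pandas 2.3.3 and matplotlib 3.10.9 made tables and figures.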

Additional observations from a re-analysis of the deposited data

Results flagged for a closer look

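The difference between RA and noRA differed between 24 h and 12 h for 6 of the 9 factors, by a limma interaction test over all 13948 genes. Of all genes, 2.68% were called lower and 4.17% higher in this test. The change of the log2 difference, 24 h minus 12 h, was -1.18 for Otx2, -1.24 for Grhl2, -2.91 for Vrtn, -2.16 for Foxd3, -1.02 for Pou3f1 and -0.70 for Zic2. At 24 h against 12 h the endoderm markers, whose part was not tested, summed to 94.0 to 115 TPM in RA_24h and to 19.0 to 22.4 TPM in RA_12h.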

How the results depend on the processing

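All 9 factors passed as higher in noRA_24h against ESC_0h under every alternative run that kept them. Counts of all genes and of factors moved more. With no filter, 1 factor was higher and 1 lower in KO against WT, and the same counts came from FPKM. With a mean of at least 5 TPM, which removes Vrtn and others, 0 factors were lower in noRA_12h and 0 in RA_12h against ESC_0h, 1 was lower in RA_24h against ESC_0h and 0 were higher in KO, and the genes called higher numbered 2587 in RA_24h against ESC_0h, 1562 in RA_24h against RA_12h and 383 in the change of the RA effect. Median-of-ratios scaling gave 2 factors lower in RA_24h against RA_12h (as did FPKM), 385 genes higher in the change of the RA effect, and 558 genes and 1 factor lower in KO. Quantile normalization gave 0 factors lower in noRA_12h against ESC_0h (as did a model of only the groups compared), 1637 genes higher and 3 factors lower in RA_24h against RA_12h, 279 genes higher in the change of the RA effect, and 477 genes and 1 factor lower in KO. The GC and length correction gave 2049 genes lower in RA_12h against noRA_12h, 2982 lower in RA_24h against noRA_24h, 858 lower in the change of the RA effect, 854 meeting the joint call at 12 h, 933 higher in KO, and 4 factors higher and 3 lower in RA_24h against RA_12h. The cause of these shifts was not tested.

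Without noRA_12h library 1 and RA_24h library 2, chosen after seeing the data, 4427 genes were lower in noRA_12h against ESC_0h, 4545 genes were higher and 2 factors lower in noRA_24h against noRA_12h, 4151 genes were lower in RA_24h against noRA_24h (4201 higher), 2 factors were lower in RA_24h against RA_12h, 2028 genes were higher and 2046 lower in the change of the RA effect, and 2070 met the joint call at 24 h. Leaving out 1 library at a time gave 1570 to 3636 genes higher and 1 to 2 factors lower in noRA_24h against noRA_12h, 1 to 2 factors higher in RA_12h against noRA_12h, 1326 to 3583 genes lower in RA_24h against noRA_24h, 1 to 2 factors lower in RA_24h against RA_12h, 384 to 1075 genes higher in the change of the RA effect, 765 to 1608 meeting the joint call at 24 h, and in KO 116 to 1000 genes and 0 to 3 factors higher and 198 to 2156 genes and 0 to 2 factors lower. The libraries whose absence moved such a count by over 1.5 times were noRA_12h 1 and 2, RA_12h 3 and RA_24h 1 to 3 in the time course, and each of the 6 in the Cyp26a1 set.

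Values that changed sign were all ones that had not passed. On the log2 scale these were Sall2 (-0.055) and Vrtn (-0.077) in RA_24h against RA_12h and Zic5 in KO (0.023) with quantile normalization, and Tcf15 in the change of the RA effect (-0.074) and Zic5 in KO (4.4e-04) with the GC and length correction. Leaving out 1 library at a time gave -0.12 to 0.40 for Zic5 in RA_12h against noRA_12h, -0.12 to 0.17 for Tcf15 and -0.16 to 0.018 for Sall2 in the change of the RA effect, and -0.0064 to 0.17 for Zic2 in KO.

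With the replicate number as a block, 1 factor was higher and 1 lower in KO, as given above, and no other call in KO changed. In the time course the check showed no pairing by number, with same-number correlations of -0.837 to 0.415 of which 7 of 30 pairs were over 0.1. The block there gave 5 factors lower in RA_12h against noRA_12h and 7 in RA_24h against noRA_24h, without Vrtn (adjusted p = 0.0575) and Zic5 (0.0617), and 1537 genes lower at 24 h in place of 1737.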
